A study of Mus musculus with 6 samples.

Results

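Neurons carry several families of RNA-binding proteins, and some of these proteins are made by few other cells. In sorted dorsal root ganglion cells, 10 genes of these families were followed here: Elavl2, Elavl3, Elavl4, Nova1, Nova2, Rbfox1, Rbfox2, Rbfox3, Celf4 and Srrm4. They were chosen by symbol from 41388 gene identifiers in the count tables, and each symbol matched 1 identifier. The rule uses no measured value, but the genes were proposed with earlier results of these data known. All 10 passed the filter on low counts, which left 14958 genes. The study compared male with female mouse embryos of strain C57BL/6 at 18.5 dpc (days after coitum), in 3 libraries per sex. Every embryo carried a Ret-EGFP reporter, so all groups share it. The genotype label names the transgene Tg(Ret-EGFP)SJ, whereas the series description places EGFP in the Ret locus of heterozygotes, and the labels do not settle which holds. EGFP-positive cells were sorted from pooled dorsal root ganglia of spinal levels T11 to S1, so that each value is an average over Ret reporter cells of all kinds in those ganglia. Each library pooled the ganglia of 3 embryos (60 ganglia; male A, female A), of 2 (40 ganglia; male C, male D) or of a single embryo (20 ganglia; female B, female C). The labels of the last 2 are written in another form than those of the other 4 libraries, and these sets of labels are called record set 2 and record set 1.

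ELAVL2, ELAVL3 and ELAVL4 are the neuronal members of the Hu family; they bind AU-rich and U-rich stretches of RNA, stabilise messages such as that of the growth cone protein GAP43, and also act on splicing and polyadenylation. NOVA1 and NOVA2 bind YCAY motifs through KH domains, and RBFOX1, RBFOX2 and RBFOX3 bind UGCAUG; in both families a site upstream of an exon usually leads to skipping and a site downstream to inclusion. RBFOX3 is the NeuN antigen by which neurons are stained. SRRM4 drives the inclusion of neuronal microexons, and CELF4 binds UG-rich sites and regulates the stability and translation of neuronal mRNAs.

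Between 17861500 and 29330101 counts were assigned to genes per library, so the limit set by a count of 0, which is 3 counts, stood at 0.102 to 0.168 CPM (counts scaled to a common library total). The sensory neuron panel, led by Stmn2, summed to 13393 to 18138 CPM, and all 10 of its genes were detected, Ret and Isl1 among them. The leukocyte panel, led by Fcer1g, summed to 7.48 to 13.3 CPM and was highest in male A. Male A stood apart: its 10 glial and Schwann cell markers summed to 2563 CPM against 1177 to 1318 in the other 5 libraries, its 7 fibroblast markers to 2873 against 574 to 675, its 8 endothelial and pericyte markers to 104 against 43.4 to 82.8, its 6 cell cycle genes to 273 against 75.4 to 117, and its 4 sympathetic neuron markers to 23.1 against 0.854 to 7.76. No gene of these panels was at 0 counts in all libraries. The library labelled male C held 58.9 CPM of Xist, against 0.418 and 0.575 in the other males and 111 to 197 in females, together with 103 CPM of 4 Y-linked genes, so it did not match a single sex. In bulk RNA, fewer cells of a type and less RNA per cell cannot be told apart.

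The factors of a family resemble each other, so reads must be told apart by sequence. In the coding sequences, ELAVL4 and ELAVL2 share 77.4% of aligned bases, NOVA1 and NOVA2 69.0%, and RBFOX1 and RBFOX3 70.8%. The longest run of identical bases in any of the 7 pairs was 29 bases, and no stretch of 50 bases in the longest annotated transcript of a member occurred in a paralogue. To show how close the paralogues are where they are most alike, the most similar 90 bases of coding sequence within a single exon follow, from GENCODE M21 on GRCm38, 5′ to 3′ on the gene's strand. Capitals mark bases that differ from the first gene of the family.

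Elavl4, exon 7, chr4:110206416-110206505, minus strand: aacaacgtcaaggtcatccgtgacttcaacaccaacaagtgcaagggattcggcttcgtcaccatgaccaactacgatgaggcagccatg
Elavl2, exon 8, chr4:91253324-91253413, minus strand: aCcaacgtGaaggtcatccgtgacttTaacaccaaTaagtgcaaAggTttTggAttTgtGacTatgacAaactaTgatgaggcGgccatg
Elavl3, exon 7, chr9:22018587-22018676, minus strand: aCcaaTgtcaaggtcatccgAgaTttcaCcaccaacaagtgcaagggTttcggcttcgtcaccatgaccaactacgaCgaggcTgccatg
Nova1, exon 5, chr12:46700839-46700928, minus strand: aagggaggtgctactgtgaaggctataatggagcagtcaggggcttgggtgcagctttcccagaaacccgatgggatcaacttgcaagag
Nova2, exon 4, chr7:18957581-18957670, plus strand: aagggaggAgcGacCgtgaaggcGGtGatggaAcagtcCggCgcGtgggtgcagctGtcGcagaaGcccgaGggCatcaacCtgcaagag
Rbfox1, exon 5, chr16:7292188-7292277, plus strand: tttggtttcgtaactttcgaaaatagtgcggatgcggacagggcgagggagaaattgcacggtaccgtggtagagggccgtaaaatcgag
Rbfox3, exon 8, chr11:118502842-118502931, minus strand: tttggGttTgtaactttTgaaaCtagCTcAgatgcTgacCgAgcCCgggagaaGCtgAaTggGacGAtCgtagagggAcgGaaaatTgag
Rbfox2, exon 6, chr15:77105577-77105666, minus strand: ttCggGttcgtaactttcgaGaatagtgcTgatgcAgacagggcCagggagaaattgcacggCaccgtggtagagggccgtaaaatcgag

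The Elavl stretch encodes part of the last RNA recognition motif (RRM), the Nova stretch part of a KH domain and the Rbfox stretch part of the single RRM. Elavl2 differed from Elavl4 at 14 of the 90 bases and Elavl3 at 8. Nova2 differed from Nova1 at 16, Rbfox3 from Rbfox1 at 23 and Rbfox2 from Rbfox1 at 7. A read across any of these stretches therefore carries bases that differ between the paralogues.

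Levels between genes are given in RPKM, counts per kilobase of deposited exon length on the CPM scale, with TMM factors; mean and SD are over the 6 libraries. Elavl4 had the highest level, 186 ± 38.3 RPKM (n = 6), above 98.0% of tested genes, and Nova1 and Nova2 the lowest, 0.646 ± 0.260 and 0.616 ± 0.131 RPKM (n = 6), above 15.8% and 15.2%. Elavl4 exceeded Nova1 306-fold as a geometric mean, with a range of 199 to 481 over the libraries.

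Among the Hu genes, Elavl4, on chr4:110203722-110351909, stood at 129, 154 and 235 RPKM in male A, C and D and at 190, 203 and 206 in female A, B and C. Male A was lowest, male D highest, and the sexes overlapped. These values rest on 13323 to 26405 counts per library. Elavl2, on the same chromosome at chr4:91250763-91400785, stood at 35.3, 65.0 and 113 RPKM in the males and at 88.9, 93.6 and 75.2 in the females (mean 78.5 ± 26.8, n = 6). The males lay on both sides of the females, with a 3.20-fold range over the 6 libraries. Elavl3, at chr9:22015005-22052023, stood at 18.4, 20.1 and 25.4 RPKM in the males and at 22.8, 25.9 and 34.2 in the females (mean 24.5 ± 5.60, n = 6). Female C was highest and male D lay within the female range. Its RNA was thus well below that of the other neuronal Hu genes in each library. Elavl1, which encodes the Hu protein HuR found in all tissues, had a mean of 6.41 RPKM, and Elavl4 exceeded it 29.0-fold (range 24.0 to 35.2).

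Of the summed RPKM of the 3 neuronal Hu genes, 289 ± 67.5 (n = 6), Elavl4 took 64.9% ± 2.99, Elavl2 26.5% ± 4.22 and Elavl3 8.61% ± 1.54. Elavl4 was the largest member in 6 of 6 libraries, with shares from 62.9% to 70.6%. It exceeded Elavl2 by 2.47-fold (range 2.07 to 3.66) and Elavl3 by 7.63-fold (6.03 to 9.25), and Elavl2 exceeded Elavl3 by 3.08-fold (1.92 to 4.46). Each of these 3 ratios had the same direction in 6 of 6 libraries, with p = 0.03125 in an exact two-sided sign-flip permutation test, the smallest it can give, and an adjusted p of 0.04375 over the 7 pairs compared. The sizes depend on the gene length used: with the longest annotated transcript Elavl4 exceeded Elavl2 by 1.62-fold and Elavl2 exceeded Elavl3 by 6.10-fold, and without length by 1.60-fold and 5.10-fold, each still in 6 of 6 libraries. Without male A, the shares of Elavl4 and Elavl2 were 63.7% and 28.0%; without male C they were 65.0% and 26.4%.

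Rbfox1, at chr16:6809222-7412479, had the second highest level of the 10, 76.2, 111 and 124 RPKM in male A, C and D and 107, 103 and 126 in female A, B and C (mean 108 ± 17.99, n = 6). Male A was again lowest, and the other 5 libraries lay between 103 and 126. The deposited gene model starts 923867 bp downstream of that in GENCODE M21, so reads of the most upstream first exons are not in these counts. Rbfox3, at chr11:118489762-118911597, stood at 15.5, 16.8 and 19.1 RPKM in the males and at 18.6, 22.8 and 26.8 in the females (mean 19.9 ± 4.17, n = 6). Only female A lay within the male range. Rbfox2, at chr15:77078990-77307053, which is also expressed widely outside neurons, stood at 13.8, 19.6 and 17.4 RPKM in the males and at 19.6, 15.6 and 16.1 in the females (mean 17.0 ± 2.32, n = 6). The sexes overlapped throughout, and its 1.42-fold range was the narrowest of the 10.

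Rbfox1 took 74.3% ± 1.80 of the summed Rbfox RPKM of 145 ± 21.8 (n = 6), between 72.3% and 77.3% in every library. Its level exceeded that of Rbfox3 by 5.43-fold (range 4.54 to 6.58) and that of Rbfox2 by 6.31-fold (5.45 to 7.83), each in 6 of 6 libraries and each with an exact sign-flip p of 0.03125 and an adjusted p of 0.04375. Without length these folds were 3.88 and 3.56. Without male A its share was 74.7%, and without male C 74.1%. Rbfox3 and Rbfox2 were not separated per deposited length: Rbfox3 took 13.8% ± 2.02 and Rbfox2 11.9% ± 1.64, their ratio was 1.16 (range 0.860 to 1.67), and Rbfox3 was higher in 4 of 6 libraries (exact sign-flip p = 0.25, adjusted p = 0.292). This order depends on the length used. With the longest annotated transcript Rbfox3 exceeded Rbfox2 by 2.01-fold in 6 of 6 libraries (exact sign-flip p = 0.03125, adjusted p = 0.0365), and counted without length the log2 ratio was -0.12.

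**Figure D1:**
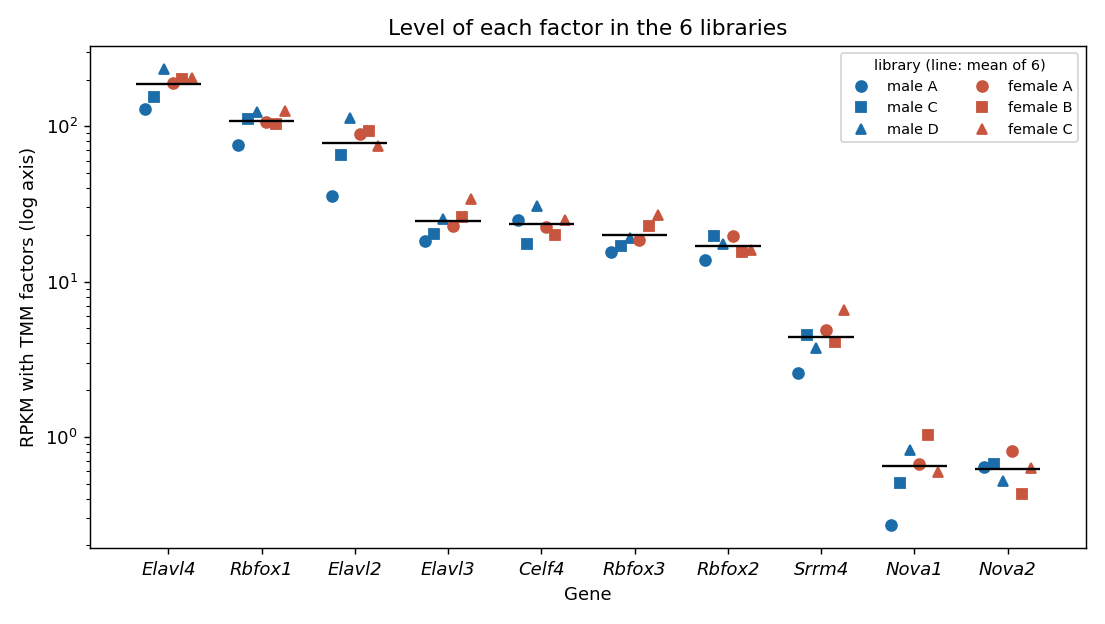
Level of the 10 factors in each library (vertical log axis, RPKM with TMM factors; horizontal axis, genes ordered by mean), with males in blue, females in red and the mean of 6 libraries as a line. Elavl4 and Rbfox1 lie at the top and the Nova genes near 1 RPKM or below, and male A is the lowest point for 8 of the 10 genes. The share of all tested genes that were lowest in male A is not given.

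The Nova genes were both low. Nova1, at chr12:46694517-46818775, stood at 0.269, 0.502 and 0.821 RPKM in male A, C and D and at 0.671, 1.02 and 0.593 in female A, B and C, from 36 to 129 counts per library. Nova2, at chr7:18925888-18965319, stood at 0.636, 0.669 and 0.521 RPKM in the males and at 0.812, 0.430 and 0.628 in the females, from 65 to 177 counts. All of these values lie above the limit set by a count of 0. Female B had the highest Nova1 and the lowest Nova2, and male A the lowest Nova1.

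No Nova paralogue was dominant. Their sum was 1.26 ± 0.214 RPKM (n = 6), and the share of Nova1 was 49.7% ± 14.3, from 29.7% in male A to 70.4% in female B. Nova1 exceeded Nova2 in 2 of 6 libraries, with a ratio of 0.987 (range 0.422 to 2.37; exact sign-flip p = 0.9375, also after adjustment over the 7 pairs). The log2 ratio was -0.02 over 6 libraries, 0.23 without male A, 0.06 without male C, 0.30 in the 3 females and -0.33 in the 3 males. Of the Nova2 exons, 2652 bases (31.7%) are also exon of Gm26821 on the opposite strand, which was listed at 0 counts in every library; the sources used here do not say whether reads over these bases were counted. With those bases left out of the length of Nova2, the share of Nova1 was 40.9%.

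**Figure D2:**
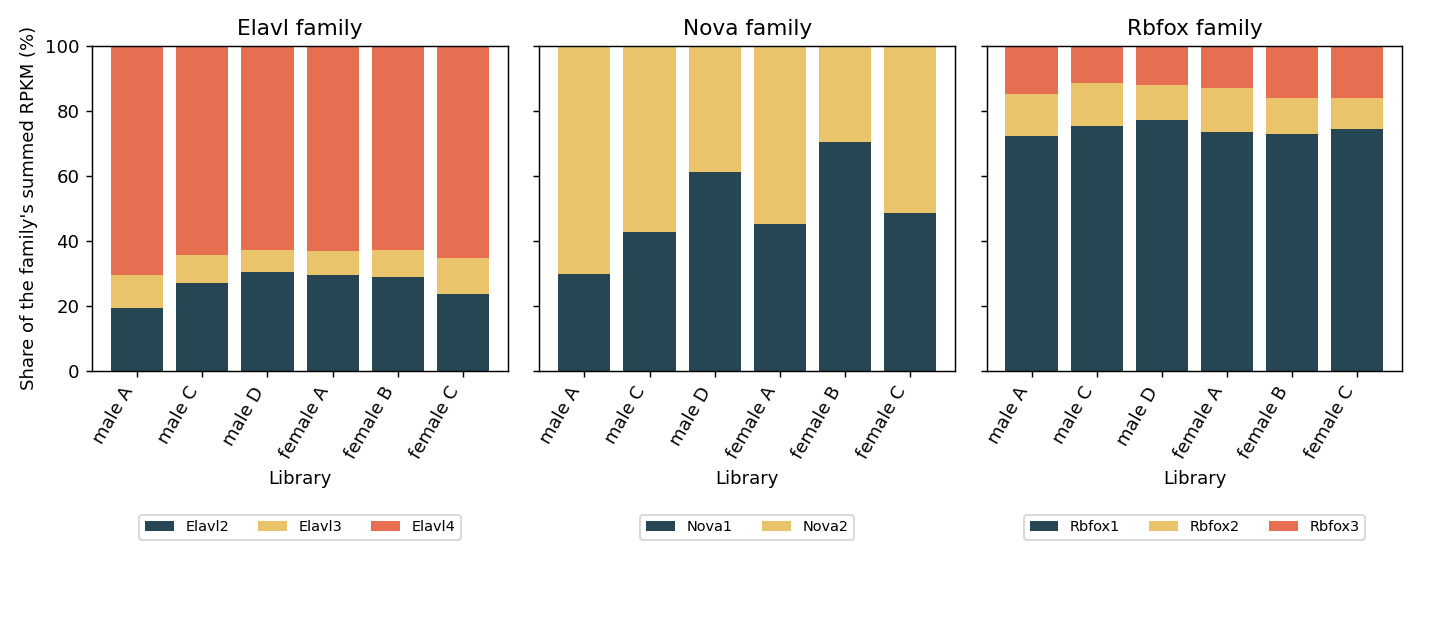
Share of each paralogue in the summed RPKM of its family (vertical axis, percent) for the 6 libraries (horizontal axis), with 1 panel per family and stacked bars that add to 100%. Elavl4 and Rbfox1 take over 60% and over 70% of their families in each library, whereas the boundary between Nova1 and Nova2 moves between 29.7% and 70.4%.

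Celf4 and Srrm4 have no paralogue among the 10. Celf4, on chromosome 18, stood at 24.7, 17.5 and 30.8 RPKM in male A, C and D and at 22.4, 20.0 and 25.0 in female A, B and C (mean 23.4 ± 4.62, n = 6). The 3 females lay inside the male range. Its deposited exon length is 3995 bases, against 8583 for all its exons in GENCODE M21, so its RPKM is per length of a shorter model. Per deposited length, Celf4 was above its relatives Celf1 (10.7 RPKM), Celf6 (8.51) and Celf2 (6.45) in 6 of 6 libraries, with ratios of 2.18, 2.71 and 3.62. The deposited exons span 8446 bases for Celf1, 3621 for Celf6 and 25884 for Celf2, so these ratios depend on the length used. Ratios without length or with other lengths are not given, so the order of these genes is not settled.

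Srrm4, at chr5:116439272-116591817, stood at 2.57, 4.54 and 3.71 RPKM in male A, C and D and at 4.85, 4.10 and 6.52 in female A, B and C (mean 4.38 ± 1.31, n = 6), from 389 to 1132 counts. Male A was lowest and female C highest, with male C inside the female range. Antisense Srrm4os shares 68 of its exon bases (0.861%) and held 2 to 268 counts. Srrm3, the related microexon regulator, had a mean of 0.635 RPKM, and Srrm4 exceeded it 6.82-fold (range 3.80 to 11.3). Rest, which encodes a repressor of neuronal genes and is itself a target of SRRM4, had 0.796 RPKM, with 1.57 in male A and 0.556 to 0.697 in the other libraries; Srrm3 and Rest are named here after their values were seen.

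In the order of mean levels, Elavl4 over Rbfox1, Elavl2 over Elavl3, Rbfox2 over Srrm4 and Srrm4 over Nova1 had ranges that did not overlap. The ranges of the other 5 neighbours overlapped. Rbfox1 was nevertheless above Elavl2 within each of the 6 libraries, whereas Elavl3, Celf4, Rbfox3 and Rbfox2 followed this order in 4 of 6 libraries at each step, and Nova1 over Nova2 in 2 of 6.

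The spread between libraries is given as the SD of log2 CPM. The members' median was 0.31, against 0.36 over all tested genes. Nova1 (0.65, above 82.3% of tested genes) and Elavl2 (0.59, above 78.1%) varied most, Srrm4 followed with 0.44, and Rbfox2 varied least (0.20, above 15.5%). The dominant paralogues Elavl4 and Rbfox1 had 0.32 and 0.26. Leaving out male A lowered the SD to 0.31 for Elavl2, 0.39 for Nova1 and 0.13 for Rbfox1.

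Male A had the lowest value of the 6 for 8 members, all but Nova2 and Celf4, and lay 0.47 below the members' own means on the log2 scale on average. The share of all tested genes that were lowest in male A is not given here, so the count cannot be read as particular to these factors. The other libraries averaged between -0.10 (male C) and 0.21 (female C). The members summed to 1716 CPM in male A and to 2291 to 3252 CPM elsewhere. The sensory neuron panel in male A, 13522 CPM, was the second lowest of the 6; male A was the lowest library for 6 of its 10 genes, Stmn2, Isl1, Pou4f1, Snap25, Scn9a and Ret, and the highest for 3. The sums of the glial, fibroblast, endothelial, leukocyte, sympathetic neuron and cell cycle panels were at their highest there, and that of the erythroid panel at its lowest. The part of these markers in the low levels was not tested. Without male A, Elavl4 had a mean of 198 ± 29.2 RPKM, Elavl2 87.2 ± 18.4, Rbfox1 114 ± 10.2 and Nova1 0.722 ± 0.204 (n = 5).

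**Figure D3:**
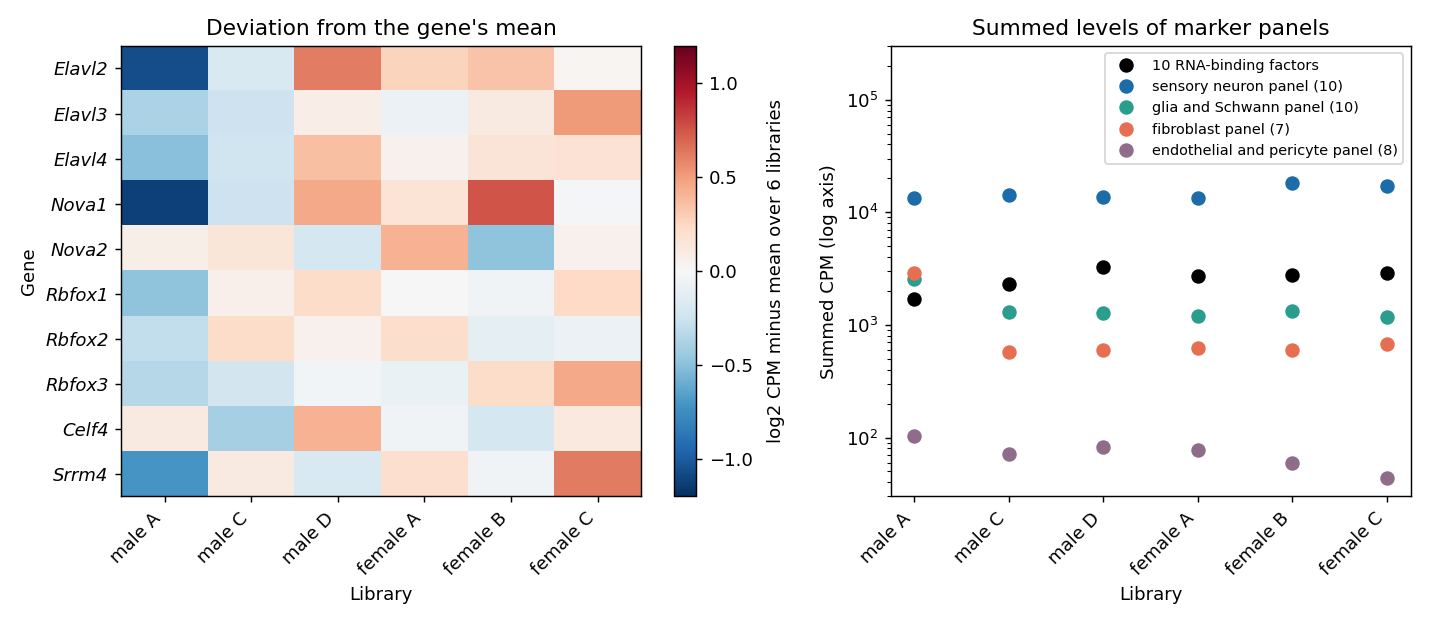
Left, log2 CPM of each factor (rows) in each library (columns) minus its mean over 6 libraries, as colour; right, summed CPM (log axis) of the factors and of 4 marker panels per library, as points, with the number of genes of a panel in brackets. Male A is blue for 8 of 10 genes on the left and has 2873 CPM of fibroblast markers on the right, against 574 to 675 in the other libraries.

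The comparison of the sexes, the one the study's groups imply, called none of the 10 factors (edgeR quasi-likelihood test, adjusted p 0.961 to 0.997). Over all genes it called 4 of 14958, or 0.0267%, at an adjusted p under 0.05, each lower in females. None of the 10 had an unadjusted p under 0.05, against 4.42% of all genes. Female minus male log2 differences were positive for 9 of 10, with a median of 0.24 against -0.00 over all genes. With DESeq2 size factors they were positive for 8 of 10, and without male A for 6 of 10 with a median of 0.05. Without the library labelled male C they were positive for 9 of 10 with a median of 0.18, and without male D for 9 of 10 with a median of 0.49. Without males A and C together they were positive for 4 of 10, with a median of -0.08. No member had 3 females all above or all below 3 males, which 4.18% and 3.88% of tested genes did.

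The largest differences were those of Nova1, 0.52 (SE 0.43), Srrm4, 0.51 (SE 0.27), Rbfox3, 0.40 (SE 0.21), and Elavl3, 0.38 (SE 0.23). In RPKM, Srrm4 had 3.61 ± 0.986 in males and 5.16 ± 1.24 in females (n = 3), and Rbfox3 had 17.2 ± 1.84 and 22.7 ± 4.11. The dominant Elavl4 and Rbfox1 differed by 0.21 (SE 0.24) and 0.11 (SE 0.22), Elavl2 by 0.27 (SE 0.36), Nova2 by 0.03 (SE 0.32), Rbfox2 by 0.01 (SE 0.21) and Celf4 by -0.12 (SE 0.24). Each of these is within 2 standard errors of 0. Without male A, Elavl2 came to -0.05, Elavl4 to 0.04, Rbfox1 to -0.07 and Rbfox2 to -0.12. Nova1 was 0.21 without male A, 0.25 without female B and 0.97 without male D, and Srrm4 was 0.32 without male A and 0.31 without female C. With record set as a term, Elavl3 came to 0.10 and Rbfox3 to 0.11, and Elavl3 was 0.19 without female C. The smallest adjusted p of any member in the 15 alternative fits was 0.367.

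**Figure D4:**
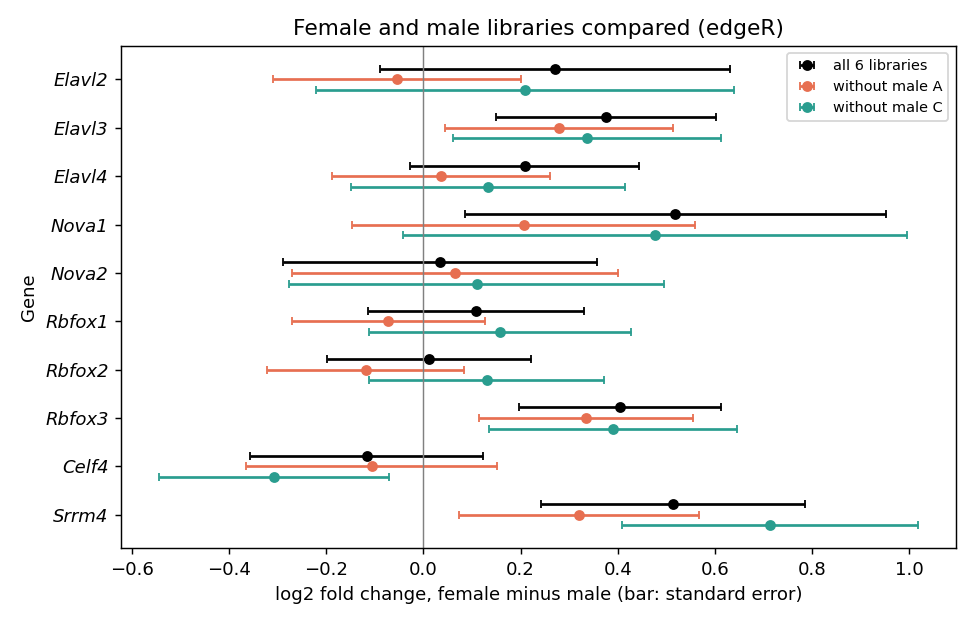
Female minus male log2 fold change of each factor (horizontal axis) with its standard error as a bar, from edgeR fits on all 6 libraries, without male A and without the library labelled male C. With all libraries 9 of 10 points lie right of 0, and without male A the points of Elavl2, Rbfox1 and Rbfox2 lie left of it.

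A further fit set record set 2 against record set 1 with sex as a term, which rests on female A as the only female of record set 1. No gene was called (edgeR, 0% of 14958), 3.23% had an unadjusted p under 0.05, and no member did. DESeq2 called 13 genes, none of them a member. Female B and female C were both above the other 4 libraries for Elavl3 and Rbfox3, 2 of 10 members against 11.3% of tested genes, with differences of 0.40 and 0.42; no member had both below, against 10.3%. The sensory neuron panel summed to 17277 and 18138 CPM in these libraries and to 13393 to 14297 in the other 4, with 5 of its 10 genes above in both. The dissociation stress panel, led by Fos, summed to 670 and 912 CPM, against 273 to 372 in the record set 1 libraries other than male A and 673 in male A. The part of either panel in the 2 differences was not tested. Nova2 had the largest difference, -0.62 (SE 0.45), which was -0.37 without female B and -0.92 without female C. Record set, number of embryos per library and sex overlap here and cannot be told apart beyond this fit.

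Other RNA-binding proteins place these levels in the wider machinery. Over all 14958 tested genes, edgeR called 0.0267% between the sexes and gave 4.42% an unadjusted p under 0.05. Of these genes 7405 were higher and 7553 lower in females, with a median of -0.0036. These shares are the background for each list below. Of 21 further splicing regulators, 19 were tested and 0 were called (edgeR, with 1 at an unadjusted p under 0.05). In females 17 were higher and 2 lower, with a median of 0.27. The median of these regulators was 0.20 without male A, 0.17 without male C, 0.56 without male D and 0.03 without males A and C together, when 12 were higher and 7 lower. Hnrnpa2b1, which packages and transports RNA, was highest with 170 RPKM, ahead of Mbnl2 with 100, Ptbp2 with 93.1 and Mbnl1 with 32.2. Ptbp2 is the PTB paralogue that neurons take up as they differentiate. Its counterpart in other cells, Ptbp1, had 2.11 RPKM, and Ptbp2 exceeded it 45.2-fold (range 18.4 to 114), and 54.1-fold without male A. The ratio was at its lowest in male A, where Ptbp1 reached 3.34 RPKM, and at its highest in male D with 1.02; Ptbp1 shares 16.3% of its exon bases with other genes, and was named after its values were seen.

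Of 7 relatives in the Elavl, Celf and Srrm families, all 7 were tested and 0 were called by edgeR (1 at an unadjusted p under 0.05), with a median of 0.26 that was 0.08 without male A. Of 6 splicing factors of epithelium and muscle, 1 passed the filter; Rbm38 (0.136 RPKM), Rbm20 (0.0893), Rbm47 (0.0846) and Esrp1 (0.0528) were the highest of the list. Of 20 proteins of mRNA transport and translation, all 20 were tested, 0 were called (1 at an unadjusted p under 0.05), and Fxr1 (35.4 RPKM), Stau1 (23.9) and Stau2 (22.6) were among the highest. Of 7 mRNAs known to be bound by neuronal Hu proteins, 0 passed the threshold (0 also at an unadjusted p under 0.05), with a median difference of 0.08 between the sexes, -0.00 without male C and 0.19 without male D. Gap43 stood at 1430 RPKM, Nrn1 at 779, Mapt, which encodes tau, at 113, and Cdkn1a at 46.1. The comparison of record sets called 0 genes of these lists as well.

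**Figure D5:**
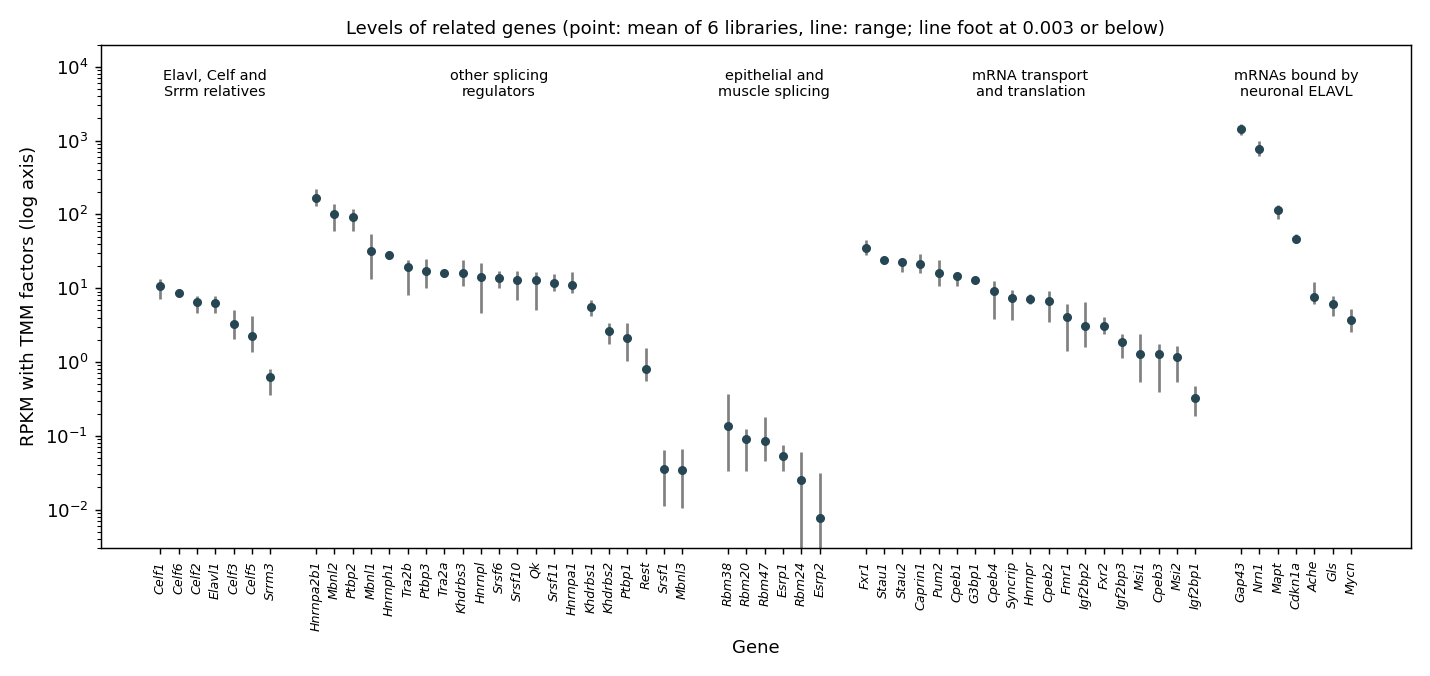
Mean RPKM (points, vertical log axis) and range over the 6 libraries (lines) of related RNA-binding genes and of mRNAs bound by neuronal ELAVL proteins (horizontal axis), grouped by list. Gap43 and Nrn1 lie highest, Ptbp2 lies well above Ptbp1, and the epithelial and muscle factors lie below 0.2 RPKM on average.

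Nearest genes were sought by the root mean square difference of centred log2 CPM over the 6 libraries, among 8871 genes of at least 10 CPM. The 10 factors were left out of these candidates, so how closely they follow each other is not given. The genes most like Elavl4 were Psmc6 (0.05), Tmem161b (0.06) and Mpped2 (0.06), against a median of 0.38 over all candidates. For Rbfox1 they were Cenpc1 (0.04), Mterf2 (0.06) and Redrum (0.06), with a median of 0.35. Nova1 was followed most closely by Alcam (0.10), Sgms2 (0.12) and Cntnap2 (0.14), with a median of 0.62. For Celf4 the nearest were Trmt10c (0.09), Mxd1 (0.10) and Fyb2 (0.10), and for Srrm4 Fam184b (0.10), Tcf20 (0.11) and Greb1 (0.11), with medians of 0.38 and 0.48. These are descriptions over 6 libraries that share the deviation of male A.

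RefSeq start sites on GRCm38.p6 gave 17 windows of 300 bases for 8 of the factors, some of which overlap. Rbfox2 had no entry and Celf4 is not reported here, so the values below leave both out. The median of the 17 windows was 17 CpG dinucleotides, against 7 over 32851 windows of all genes, and 9 of 17 (52.9%) held at least 15, against 34.6% of all. Elavl2 alone gave windows with 27, 25, 25, 19, 18 and 10. Those with 27 and 25 overlap, as do those with 19 and 18, so a single gene weighs heavily on these values. They describe windows, not genes. The windows of Elavl4 differed: the most upstream, chr4:110351862-110352161, held 23 CpG dinucleotides, whereas the 3 inner windows held 4, 5 and 6. Elavl3 had 29, Srrm4 25, Nova2 17, Nova1 14 and Rbfox3 4, and the windows of Rbfox1 had 3 and 7. The most and the least abundant factors were thus not set apart by this count. CAGCACC, a core of the REST motif, searched on both strands, was in 0% of the 17 windows and in 7.14% of all. GGACAG, another part of that motif, was in 5.88% of the 17 and in 22.2% of all. With so few windows, some of them overlapping, these shares cannot set the factors apart from all genes.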

How the data were processed

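RNA of sorted EGFP-positive dorsal root ganglion cells was measured in 6 libraries (3 male, 3 female) made with a SMARTer ultra low input kit from 10 ng of total RNA, per the labels' protocols, with no molecular identifiers. Per the submitters' processing notes, reads were handled with Subread and featureCounts 1.4.5 on GRCm38.p2; the sources used here do not give strand and multi-mapping settings. Raw counts per gene were deposited with the exon length. The deposited CPM and deposited RPKM values were recomputed from these (largest difference 4.55e-11 CPM and 1.18e-11 RPKM), and only counts and lengths were used. Symbols were found for 40254 of 41388 identifiers and for all 133 genes of the lists.

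The 10 genes, the lists and the tests were chosen with earlier results of these data known, so a pattern here is not independent support for those results. Levels are CPM and RPKM with TMM factors (0.922 to 1.08). The sexes were compared with the edgeR 4.0.16 quasi-likelihood F-test in R 4.3.3 on all genes kept by filterByExpr, with Benjamini-Hochberg adjustment and a threshold of 0.05; record sets were compared with sex as a term. The standard error of a log2 change is the change divided by the square root of its F value. The biological coefficient of variation was 31.1% (common dispersion 0.0966). The fit was tested on simulated data. Log2 values carry a prior count of 2. Paralogue ratios were tested by exact sign flips over 6 libraries. Replicates were libraries of different embryos.

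Every member is named; of each related list the 4 genes with the highest mean RPKM, those called and those at 0 throughout; and the 3 nearest genes of the highest member of each family, of Celf4 and of Srrm4. One gene that this rule would name is not reported here. Ptbp1, Rest, Srrm3, Srsf1 with its relatives and neighbours, and the further panel genes are named outside the rule, after their values were seen. Of each marker panel, the highest gene was to be named: besides Stmn2, these were Fabp7 (449 CPM), Dcn (303), Rgs5 (32.9), Fcer1g (7.39), Car2 (7.63), Dbh (4.18), Mcm6 (57.8) and Fos (383). The alternatives tried were other scaling, filters and tools, terms for batch-like labels, other gene lengths and leaving out libraries.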

Additional observations from a re-analysis of the deposited data

Results flagged for a closer look

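One value lay far from the others of its group. The share of Elavl4 in the neuronal Hu family was 70.6% in male A, whereas the other 5 libraries lay close together, from 62.9% to 65.4%; the gap to the nearest library took 0.682 of the whole range over the 6 libraries. Of 18 groups looked at in this way 1 was set apart, and chance sets apart about 1 in 20. Male A also held the lowest Elavl2 (35.3 RPKM) and the highest sums of the glial and fibroblast panels, and their part in this share was not tested.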

How the results depend on the processing

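Calls between the sexes over all genes moved with the method: 4 genes in the reported fit, 14 without the filter on low counts, 13 with DESeq2, 1 with limma voom, 0 with record set as a term, 0 in record set 1 alone, and 0 to 5 when single libraries were left out (0 without female A). The letters A and C occur in both sexes, and no label says what a letter stands for. The correlations of the deviations of the libraries that share a letter were -0.08 and 0.05, and those of all male and female pairs ran from -0.12 to 0.08. These values cannot decide whether a letter marks a shared litter, day or batch. The fit with the replicate block called 77 genes, none of them a member, turned Celf4 to 0.18, and gave 10 of 10 members a positive difference with a median of 0.48. Letter B occurs only in females and D only in males. The sex difference of this fit therefore rests on male A against female A and male C against female C, and not on all libraries. Between record sets, the reported 0 became 3 without the filter, 13 with DESeq2, 3 without the sex term and 136 in the 3 females alone, and it was 0 without each single library. No member was called in any of 150 sex and 110 record set fits of a member. Signs were less firm. Leaving out males A and C together (an alternative added later, with the data in view), Elavl2 came to -0.41, Elavl4 to -0.24, Nova1 to -0.12, Rbfox1 to -0.16 and Rbfox2 to -0.039; Rbfox2 was -0.0043 with DESeq2 size factors and -0.0044 with DESeq2. With single libraries left out, the female minus male values ranged from -0.055 to 0.77 for Elavl2, from -0.21 to 0.24 for Nova2, from -0.072 to 0.26 for Rbfox1, from -0.12 to 0.13 for Rbfox2 and from -0.31 to 0.089 for Celf4, and, with no change of sign, from 0.19 to 0.52 for Elavl3, 0.04 to 0.49 for Elavl4, 0.21 to 0.97 for Nova1, 0.27 to 0.53 for Rbfox3 and 0.31 to 0.71 for Srrm4. The record set values ranged from -0.24 to 0.076 for Elavl2, -0.18 to 0.60 for Nova1, -0.044 to 0.24 for Rbfox1, -0.16 to 0.16 for Celf4, -0.24 to 0.43 for Srrm4, 0.18 to 0.59 for Elavl3, 0.29 to 0.53 for Rbfox3 and -0.92 to -0.37 for Nova2; without the sex term Nova2 was -0.32. Without the sex term Elavl2 was 0.16 and Celf4 -0.085, and Celf4 was -0.00064 without the filter and -0.00086 with limma voom. The log2 ratio of Nova1 to Nova2 ranged from -0.27 to 0.23 without single libraries and was 0.30 in females, and that of Rbfox3 to Rbfox2 was -0.12 without length. Shares depended on the length used, but Elavl4 and Rbfox1 stayed the largest. With the longest annotated transcript they were 36.1% for Elavl2, 5.96% for Elavl3, 58.0% for Elavl4, 9.11% for Rbfox2 and 18.3% for Rbfox3; as shares of counts they were 35.9% for Elavl2, 57.1% for Elavl4, 64.8% for Rbfox1, 18.3% for Rbfox2 and 16.9% for Rbfox3. Without single libraries the SD of log2 CPM ranged from 0.31 to 0.66 for Elavl2, 0.39 to 0.73 for Nova1 and 0.13 to 0.29 for Rbfox1, each lowest without male A. With 1 library left out, the sign-flip test has too few libraries to pass 0.05, so the ratios were then values with no test. Where no cause is shown by the alternative itself, the cause was not tested. Depth limits the Nova genes most, with as few as 36 counts of Nova1 in a library.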

Other observations

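Among the splicing regulators, Srsf1, a general splicing factor expressed in nearly all cells, held only 25 counts over the 6 libraries, with 2 to 7 in each. Its relatives Srsf10 and Srsf11 held at least 1547 and 1198 counts in each library. Neighbours of Srsf1 on chromosome 11 were also low: Vezf1 held 1 count in all, Mrps23 13 and Cuedc1 18, whereas Dynll2 held 4701. These genes were looked at after the value of Srsf1 was seen, and whether these counts reflect the RNA level of the genes was not tested. Of the genes near the Nova genes, Prkd1, near Nova1, held 2996 counts, and Mypop and Irf2bp1, near Nova2, held 400 and 386.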
